A study of Mus musculus with 36 samples.

Results

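The semaphorins and their receptors are 10 genes taken from a family of cell guidance signals, of 39017 genes counted in mouse pancreatic fibroblasts. They were chosen by name, with earlier results of these data known. They are the secreted semaphorins Sema3a, Sema3c, Sema3d and Sema3e, the membrane semaphorins Sema5a and Sema7a, the neuropilins Nrp1 and Nrp2, and the plexins Plxna1 and Plxnd1. Each of the 10 symbols matched 1 row of the count table and all 10 passed the filter on low counts. Sema7a was selected on its pattern among the tumor clones, so its levels with the clones, single or averaged, are given here as values with no test. RNA was sequenced from fibroblasts of C57BL/6 mice grown alone (mono-culture) or kept for 48 h in direct contact with 1 of the tumor sub-clones E, H, K, M, N, T or V, or with KPC1 cells, which the labels do not describe further. Each tumor line is a single clone or line, so a difference between co-cultures is a difference between those lines. The tumor cells carried GFP, and the fibroblasts were separated from them by sorting on that signal. There were 4 libraries in each of the 9 groups (36 in all), and nothing in the labels says that they came from separate cultures or animals, so the p-values below measure the spread between these libraries, which may be technical.

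Semaphorins are extracellular ligands first known for steering growing axons, and they also act on vessels, immune cells, fibroblasts and tumor cells. Class 3 semaphorins are secreted and mostly bind a neuropilin, which holds the ligand, while a plexin partner carries the signal across the membrane. Sema3e is the exception, since it can bind Plxnd1 directly. Sema5a spans the membrane, and Sema7a is held at the cell surface by a lipid anchor and signals through β1 integrins and through plexin C1. Neuropilins also bind members of the vascular endothelial growth factor (VEGF) family. In the pancreas, semaphorin and plexin genes are known mainly as axon guidance genes that are often altered in ductal tumors.

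Total counts per library ran from 12532122 to 21985538, and the lowest of the 360 counts of the 10 genes was 19. Levels are given as CPM (counts scaled to a library of fixed size), adjusted between libraries by the trimmed mean of M values (TMM). All 10 fibroblast markers looked at were detected, with a summed level of 21371 to 23233 CPM in mono-culture and 11017 to 32130 CPM in co-culture. The summed level of 11 epithelial or tumor markers was 1.06 to 1.82 CPM in mono-culture and 18.5 to 802 CPM in co-culture, mostly from Krt8, Krt18 and Krt19. Of these 11, Esrp1 and Cldn4 did not pass 3 counts in any library, and Epcam and Cldn7 did not pass 9 and 8, both reached in mono-culture. The highest co-culture library held 837 counts of Cdh1, against at most 8 in mono-culture. For Ocln these values were 99 and 2, for Cldn3 72 and 0, and for Krt7 40 and 17. Marker sums for endothelial, macrophage, glial and pericyte genes stayed at or under 16.1 CPM, with Tie1 at 0 counts in every library. The part of tumor cell RNA in the results below was not tested, and in bulk samples fewer cells of a type and less RNA per cell cannot be told apart.

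The 4 class 3 genes lie close to each other on mouse chromosome 5 (build GRCm38, plus strand, GENCODE annotation): Sema3d at chr5:12383385-12588948, Sema3a at chr5:13125414-13602565, Sema3e at chr5:14025276-14256689 and Sema3c at chr5:17574281-17730268. Sema7a lies at chr9:57940112-57962865 on the plus strand. Promoter sequences from RefSeq (GRCm38.p6; 250 bases before and 50 after the annotated start) matched 9 of the 10 genes, Plxna1 being the one without an entry. Those of the 3 secreted semaphorins that fell together, and that of Sema7a, are shown so that their base composition and known motif letters can be compared. Capitals mark matches, on either strand, to 8 motifs: the TATA box with the letters TATAAA, the GC box with GGGCGG, the box with CCAAT, the AP-1 site with TGANTCA, the ATF/CREB half-site with TGACG, the C/EBP-ATF element with TGATGNAA, the hypoxia response core with ACGTG and the TEAD site with GGAATG. The windows are chr5:17574566-17574865 for Sema3c, chr5:12382916-12383215 for Sema3d, chr5:13396534-13396833 for Sema3a and chr9:57939862-57940161 for Sema7a, all on the plus strand.
Sema3c: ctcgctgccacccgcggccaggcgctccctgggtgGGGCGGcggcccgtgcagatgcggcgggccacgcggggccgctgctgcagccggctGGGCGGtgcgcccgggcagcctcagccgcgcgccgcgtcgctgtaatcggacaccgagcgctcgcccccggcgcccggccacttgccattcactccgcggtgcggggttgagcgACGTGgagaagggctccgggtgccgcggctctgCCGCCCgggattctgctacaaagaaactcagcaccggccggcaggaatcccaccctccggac
Sema3d: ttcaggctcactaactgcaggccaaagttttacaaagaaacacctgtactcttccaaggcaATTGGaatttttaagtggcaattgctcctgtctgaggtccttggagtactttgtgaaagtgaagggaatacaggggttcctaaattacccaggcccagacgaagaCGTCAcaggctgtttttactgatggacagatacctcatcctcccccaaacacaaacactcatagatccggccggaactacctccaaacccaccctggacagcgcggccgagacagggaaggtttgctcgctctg
Sema3a: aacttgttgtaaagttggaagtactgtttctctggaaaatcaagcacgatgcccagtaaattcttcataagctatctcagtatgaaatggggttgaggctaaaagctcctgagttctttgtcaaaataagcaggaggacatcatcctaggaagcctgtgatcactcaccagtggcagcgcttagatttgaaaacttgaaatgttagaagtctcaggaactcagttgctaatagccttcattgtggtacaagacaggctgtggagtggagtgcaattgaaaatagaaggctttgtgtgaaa
Sema7a: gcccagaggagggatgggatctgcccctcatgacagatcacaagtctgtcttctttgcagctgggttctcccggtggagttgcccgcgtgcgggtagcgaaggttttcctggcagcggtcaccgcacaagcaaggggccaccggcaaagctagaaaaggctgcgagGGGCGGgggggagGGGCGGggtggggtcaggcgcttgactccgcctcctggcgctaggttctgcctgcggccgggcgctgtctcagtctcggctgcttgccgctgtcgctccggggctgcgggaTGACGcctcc

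The 3 promoters that share a direction of change have little in common in these letters. The Sema3c window is rich in G and C (75.7%) and holds 3 GC boxes and 1 hypoxia response core. The Sema3d window (49.7% G and C) holds 1 CCAAT box and 1 ATF/CREB half-site, and the Sema3a window (41.3% G and C) holds none of the 8. The starts used for Sema3c and Sema3a lie inside the gene spans given by GENCODE. Sema7a (67.3% G and C) has 2 GC boxes and 1 ATF/CREB half-site. These motifs are common: among 32851 promoters of this length, 35.7% hold the GC box, 37.4% the CCAAT box, 20.8% the ATF/CREB half-site, 19.6% the hypoxia response core, 14.7% the TEAD letters, 13.6% the TATA box, 7.81% the AP-1 letters and 3.97% the C/EBP-ATF letters, and the median promoter has 52.7% G and C. The ATF/CREB half-site and the hypoxia response core can overlap. A match is only a match of letters.

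**Figure D1:**
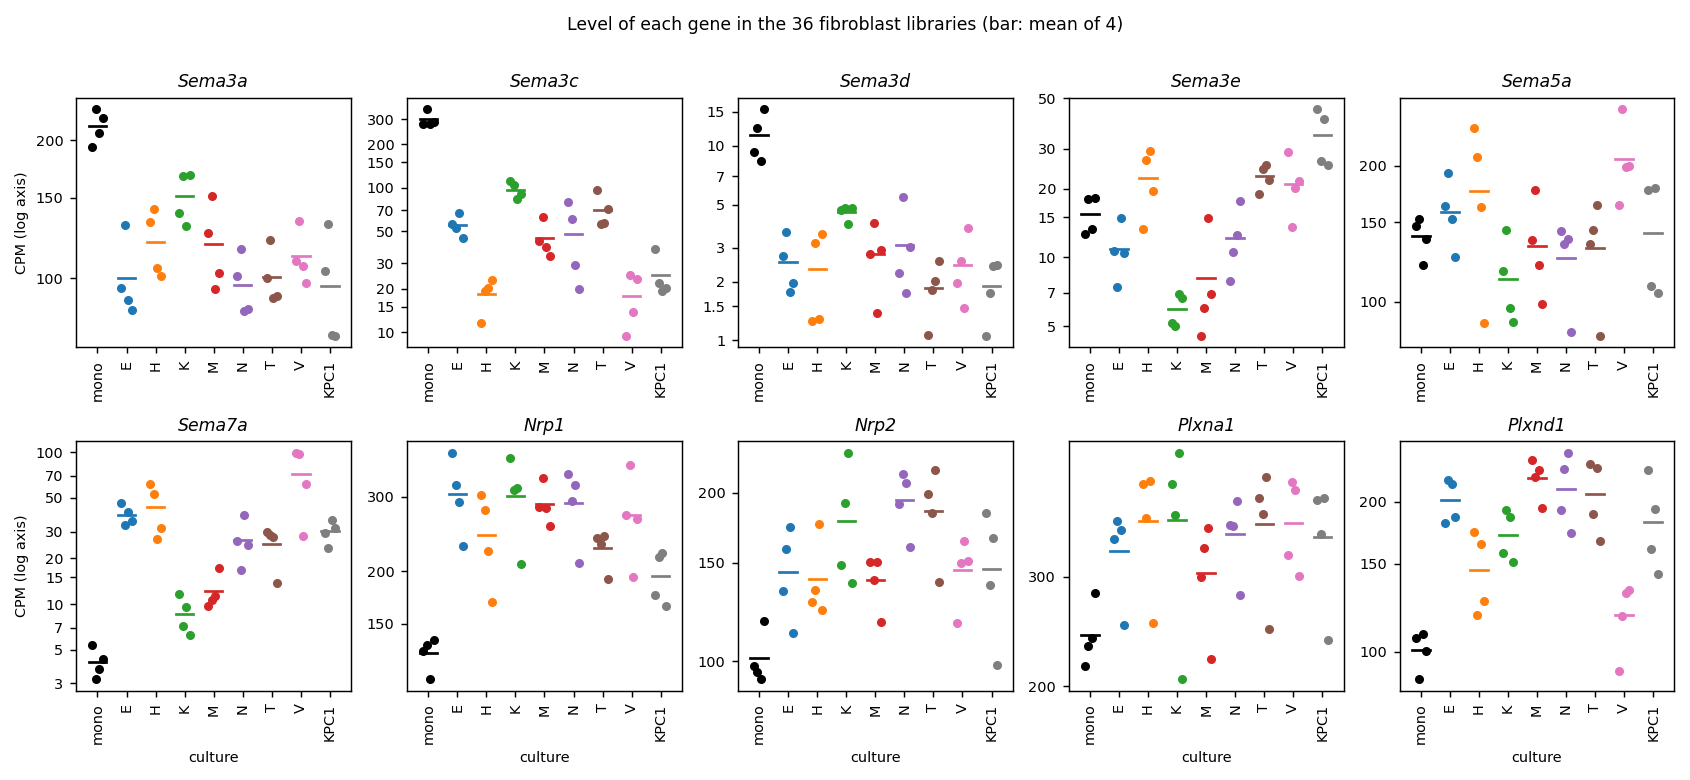
Level of each of the 10 genes in CPM (log axis, 1 panel per gene, each with its own scale) in mono-culture, in co-culture with clones E, H, K, M, N, T and V and in co-culture with KPC1; points are libraries and bars are the means of 4. All co-culture libraries lie below mono-culture for Sema3a, Sema3c and Sema3d and above it for Sema7a and Nrp1.

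To compare this signaling set between fibroblasts with and without tumor cells, each co-culture was set against mono-culture by edgeR's quasi-likelihood test. Benjamini-Hochberg adjustment was over 14439 genes. No group had tumor cells without contact, so the part of contact itself was not tested. Sema3a, Sema3c and Sema3d fell in all 8 co-cultures, Nrp1 rose in all 8, and the other receptors rose in most of them. With the mean of the 7 clones, 4 of the 9 genes other than Sema7a rose (Nrp1, Nrp2, Plxna1 and Plxnd1) and 3 fell (Sema3a, Sema3c and Sema3d), whereas 24.3% of all genes tested were called higher and 24.9% lower. With KPC1 6 of all 10 rose and 3 fell, against 30.5% and 28.5% of all genes. The same 9 genes were tested with each clone. In co-culture with clone E 3 rose and 3 fell (all genes, 16.5% and 15.5%), and with clone M 2 rose and 4 fell (12.2% and 10.8%). With clone K 4 rose and 4 fell (10.4% and 8.69%). In each of the co-cultures with clones H, N, T and V 4 rose and 3 fell. The matching shares of all genes were 27.8% and 26.4% for clone H, 19.7% and 19.2% for clone N, 25% and 24.7% for clone T, and 29.4% and 28.9% for clone V. Because the 10 genes were chosen with earlier results of these data known, these counts are description only. All of these comparisons share the same 4 mono-culture libraries, which come last in the serial numbers of the library titles. What that order stands for is not given, so it cannot be told apart from the effect of co-culture.

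**Figure D2:**
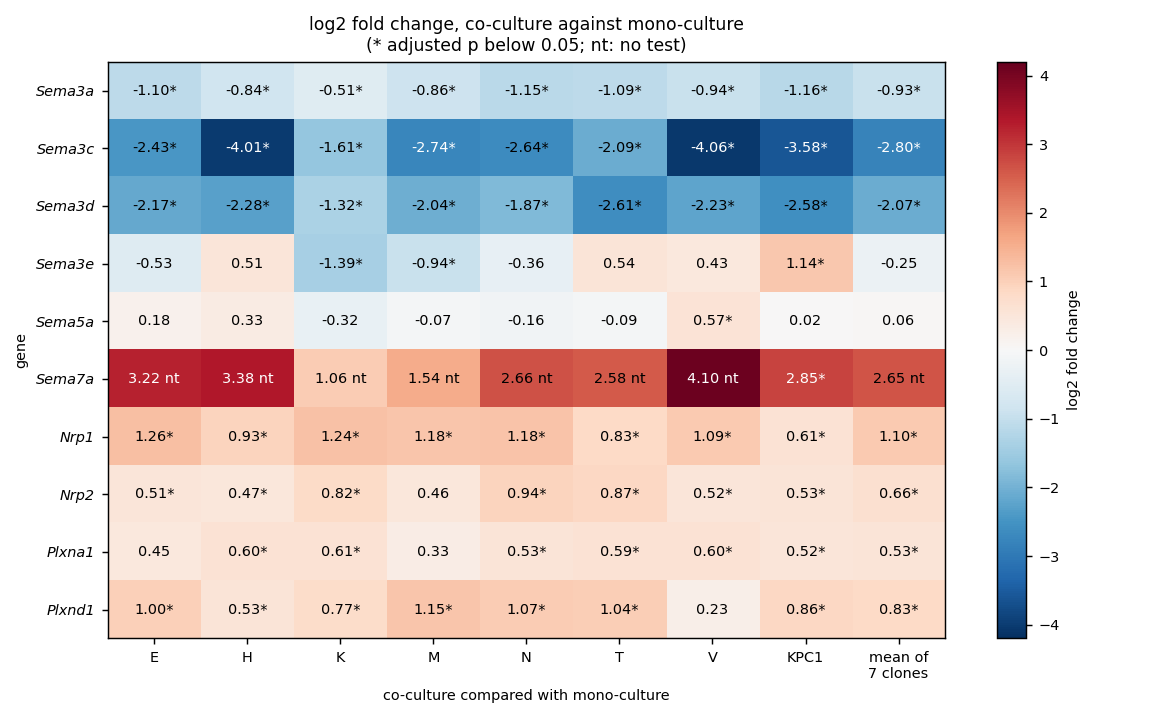
log2 fold change of the 10 genes (rows) in each co-culture against mono-culture and in the mean of the 7 clones (columns); blue is lower and red is higher in co-culture, an asterisk marks an adjusted p below 0.05 and nt marks values of Sema7a that were not tested. The blue block of Sema3a, Sema3c and Sema3d is deepest for Sema3c with clones H and V (-4.01 and -4.06), and the Sema7a row is reddest with clone V (4.10).

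Sema3c, a secreted guidance ligand that binds both neuropilins, showed the largest fall with the mean of the 7 clones, although with clone T Sema3d fell more (log2 fold change -2.61, against -2.09 for Sema3c). The mono-culture libraries held 277, 351, 276 and 288 CPM, and co-culture with clone K 111, 104, 83.9 and 90.8 CPM. With clone T the values were 96.7, 56.0, 57.1 and 71.1 CPM, and with clone E 56.0, 52.8, 67.0 and 44.7 CPM. All co-culture libraries lay below the mono-culture range, the nearest at 111 CPM. Co-culture with clone M gave 42.7, 62.5, 39.1 and 33.9 CPM, and that with clone N the widest spread of the clones, from 80.4 and 61.3 down to 29.1 and 19.8 CPM. The lowest levels were those with clone H, at 11.6, 19.1, 20.1 and 23.1 CPM, with clone V, at 9.41, 24.8, 13.8 and 23.5 CPM, and with KPC1, at 37.7, 22.1, 19.2 and 20.2 CPM. The ranges of clones H and V lay below all libraries of clones E, K, M and T, and the highest KPC1 library lay within the range of clone M. In log2 fold change the fall was -2.80 with the mean of the 7 clones (SE 0.190, edgeR adjusted p = 1.7e-12), about 6.95-fold, and it ran from -1.61 with clone K (SE 0.316, adjusted p = 0.00043) to -4.06 with clone V (SE 0.353, adjusted p = 1.9e-10). The clones differed from each other (edgeR F test over the 7, adjusted p = 4.4e-07). The summed epithelial markers averaged 101 CPM with clone V and 535 CPM with clone N; their part in this order was not tested.

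Sema3a, the secreted ligand that collapses growth cones through Nrp1 and class A plexins, fell less than Sema3c. Mono-culture held 194, 234, 207 and 224 CPM, and the 32 co-culture libraries ran from 74.9 to 168 CPM with a median of 105 CPM, so the ranges did not overlap. Its log2 fold change was -0.93 with the mean of the 7 clones (SE 0.116, edgeR adjusted p = 1.2e-07) and -1.16 with KPC1 (SE 0.169, adjusted p = 8.9e-07). The smallest fall was that with clone K, at 139, 167, 130 and 168 CPM (log2 fold change -0.51, SE 0.167, adjusted p = 0.029). That call was lost without clone K replicate 1 or 3 or mono-culture replicate 2 or 4 (-0.44 to -0.49, adjusted p 0.068 to 0.1), and with no filter on low counts (-0.51, adjusted p = 0.05). The clones differed in their Sema3a level (edgeR adjusted p = 0.013), a call that was lost without clone K replicate 2 (adjusted p = 0.055).

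Sema3d, a class 3 ligand known from heart and vessel development, was low throughout and fell in step. It stood at 9.36, 12.4, 8.37 and 15.4 CPM in mono-culture and at 1.05 to 5.47 CPM in co-culture, with a median of 2.50 CPM, and every co-culture library was below the lowest mono-culture one. The log2 fold change was -2.07 with the mean of the 7 clones (SE 0.227, edgeR adjusted p = 9e-09), -2.58 with KPC1 (SE 0.376, adjusted p = 8.7e-07) and least with clone K, at -1.32 (SE 0.351, adjusted p = 0.0069). As a low gene it is compressed on a log2(RPKM + 1) scale, where the mean fall was -0.99. A difference among the clones was not called (adjusted p = 0.057), but was called with DESeq2 (0.033), with at least 10 counts required in every library (0.042) and without any one of 9 libraries: clone E replicate 2, clone H replicate 2 or 4, clone M replicate 2 or 3, clone N replicate 2 or 3, clone T replicate 4 or clone V replicate 4 (adjusted p 0.033 to 0.048).

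Sema3e, the class 3 ligand of Plxnd1, did not follow the other 3. Mono-culture held 12.7, 18.04, 13.4 and 18.2 CPM. With KPC1 it was 44.7, 26.4, 40.7 and 25.5 CPM, higher by 1.14 in log2 fold change (SE 0.292, edgeR adjusted p = 0.0013). With clone K it was 5.19, 5.01, 6.93 and 6.61 CPM, a fall to -1.39 in log2 fold change (SE 0.307, adjusted p = 0.0014). All KPC1 libraries were above mono-culture and all clone K libraries below it. With clone M it was 4.53, 6.01, 14.96 and 6.94 CPM, and the call there (log2 fold change -0.94, SE 0.304, adjusted p = 0.024) rested on the spread of single libraries. It was lost without clone M replicate 1, 2 or 4 or mono-culture replicate 2 or 4 (-0.74 to -0.88, adjusted p 0.061 to 0.099), and the value became -1.42 without clone M replicate 3. The other 5 clones gave -0.53 to 0.54, and the mean of the 7 clones -0.25 (95% interval -0.68 to 0.18, adjusted p = 0.37), which hides opposite directions. The clones differed from each other (edgeR F test, adjusted p = 2.4e-06), from 5.93 CPM with clone K to 22.7 CPM with clone T.

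Sema5a, a membrane semaphorin with thrombospondin repeats, was not called between mono-culture and the mean of the 7 clones (log2 fold change 0.06, 95% interval -0.30 to 0.43, edgeR adjusted p = 0.80) or KPC1 (0.02, -0.46 to 0.51, adjusted p = 0.94), and the sign of both values turned under other settings. Mono-culture held 147, 153, 121 and 138 CPM. The libraries of clone V stood higher than all of these, at 164, 267, 199 and 200.1 CPM (log2 fold change 0.57, SE 0.247, adjusted p = 0.048). That call was lost without any one of the 4 mono-culture libraries or clone V replicates 2, 3 or 4 (0.43 to 0.62, adjusted p 0.056 to 0.17), with library size alone (0.47, adjusted p = 0.079), with either other filter on low counts and on both RPKM scales (0.43 to 0.59, adjusted p 0.059 to 0.092). With clone H the 4 libraries spread from 89.7 to 242 CPM, a difference that was not called (0.33, adjusted p = 0.26) but reached 0.55 (adjusted p = 0.05) without clone H replicate 4. Among the clones Sema5a differed (edgeR adjusted p = 0.022), a call lost without clone V replicate 2 (adjusted p = 0.083).

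Sema7a, the lipid-anchored semaphorin that engages β1 integrins, was the least abundant of the 10 genes in mono-culture and higher with every tumor line. Mono-culture held 5.34, 3.19, 3.73 and 4.34 CPM, on 49 to 97 counts. KPC1 is not one of the clones whose pattern selected it, though the members were chosen with earlier results of these data known. With KPC1 Sema7a stood at 29.5, 23.3, 35.8 and 31.5 CPM, on the same side in 4 of 4 libraries. That was a rise of 2.85 in log2 fold change (SE 0.355, edgeR adjusted p = 8.9e-08), about 7.20-fold, against the same mono-culture libraries as for the clones. The values with the clones have no test. Their mean stood above mono-culture by 2.65 in log2 fold change, and by 1.94 on the log2(RPKM + 1) scale. Clone V gave 99.0, 97.9, 27.9 and 61.9 CPM, clone H 61.6, 53.1, 26.99 and 31.9 CPM, and clone E 46.4, 32.9, 40.6 and 35.1 CPM. Clone N gave 25.96, 16.7, 38.7 and 24.4 CPM, and clone T 29.8, 28.6, 27.6 and 13.7 CPM. The lowest were those with clone M, at 9.68, 10.6, 11.2 and 17.4 CPM, and clone K, at 11.6, 7.15, 9.57 and 6.30 CPM. All 32 co-culture libraries lay above the 4 mono-culture libraries, and no clone K library reached a library of clones E, H, N, T or V. The mean with clone V was 8.28 times that with clone K, while the range of the clone V libraries overlapped those of clones E, H, N and T. The epithelial marker sum averaged 101 CPM with clone V, the lowest of the 8 co-cultures, and 151 CPM with clone K.

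Nrp1, the main neuropilin for Sema3a and a VEGF co-receptor, rose in every co-culture, and Nrp2, its relative with a preference for other class 3 ligands and for VEGF-C, rose in most. Nrp1 stood at 129, 134, 111 and 137 CPM in mono-culture and at 165 to 382 CPM in co-culture (median 269 CPM), with no overlap. The log2 fold change of Nrp1 was 1.10 with the mean of the 7 clones (SE 0.154, edgeR adjusted p = 7.1e-07), 0.61 with KPC1 (SE 0.186, adjusted p = 0.0059), and 0.83 to 1.26 with single clones, which were not called different from each other (adjusted p = 0.24). KPC1 gave the lowest co-culture mean, at 175, 216, 221 and 165 CPM. Clone E gave the highest, at 382, 320, 291 and 229 CPM. Nrp2 stood at 98.2, 95.7, 92.8 and 118 CPM in mono-culture and at 98.6 to 236 CPM in co-culture, 28 of 32 libraries being above the mono-culture range. Its log2 fold change was 0.66 with the mean of the 7 clones (SE 0.141, adjusted p = 0.00027) and largest with clone N, at 0.94 (SE 0.178, adjusted p = 9.1e-05), whose libraries held 191, 216, 209 and 160 CPM. With clone M it was not called (0.46, SE 0.177, adjusted p = 0.056). It was called there with DESeq2 (adjusted p = 0.042), with library size alone (0.048) and without clone M replicate 4 (0.046) or mono-culture replicate 4 (0.048).

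The smaller rises of Nrp2 depended on single libraries. With clone E (0.51, edgeR adjusted p = 0.025) the call was lost without clone E replicate 2 or 3 or mono-culture replicate 1, 2 or 3 (0.42 to 0.49, adjusted p 0.058 to 0.098). With clone H (0.47, adjusted p = 0.025) it was lost without clone H replicate 3 or mono-culture replicate 1, 2 or 3 (0.34 to 0.45, adjusted p 0.051 to 0.13) and on both RPKM scales (adjusted p 0.055 and 0.058), and with KPC1 (0.53, adjusted p = 0.010) without KPC1 replicate 1 (0.39, adjusted p = 0.071). Among the clones Nrp2 was called different (adjusted p = 0.037). That call was lost with no filter (adjusted p = 0.06) and without any one of 14 libraries (adjusted p 0.05 to 0.076): replicates 1 and 4 of clone E, 1, 2 and 4 of H, 2 of K, 2 and 4 of M, 1, 2 and 3 of N, 1 and 3 of T and 1 of V. Nrp1 exons overlap those of a microRNA gene on the same strand, Mir1903, in the annotation.

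Plxnd1, the Sema3e receptor, and Plxna1, a signaling partner of the neuropilins, both rose with the mean of the 7 clones. Plxnd1 held 106, 88.0, 108 and 100.1 CPM in mono-culture, and 31 of 32 co-culture libraries were above that range. Its log2 fold change was 0.83 with the mean of the 7 clones (SE 0.121, edgeR adjusted p = 1.4e-06) and 0.86 with KPC1 (SE 0.151, adjusted p = 1.4e-05), with the highest level beside clone M, at 243, 224, 232 and 194 CPM. Clone V was the one co-culture in which it was not called, at 91.3, 118, 131 and 133 CPM (0.23, 95% interval -0.06 to 0.53, adjusted p = 0.19). The clones differed in Plxnd1 (edgeR F test, adjusted p = 1.9e-05), with a 1.89-fold span between the means of clones M and V.

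Plxna1, per length the more abundant of the pair, held 215, 232, 239 and 282 CPM in mono-culture and 205 to 474 CPM in co-culture. In that gene 25 of 32 co-culture libraries were above the mono-culture range and 1, of clone K, was below it. The log2 fold change with the mean of the 7 clones was 0.53 (SE 0.168, edgeR adjusted p = 0.0096), and without mono-culture replicate 1 it was 0.47 and no longer called (adjusted p = 0.052). It was called with clones H, K, N, T and V and KPC1 (0.52 to 0.61), but not with clones E (0.45, adjusted p = 0.11) and M (0.33, adjusted p = 0.29), and no difference among the clones was called (adjusted p = 0.83). Each single call was lost without certain libraries. For clones K and N these were replicates 1, 2 and 3 of the clone and of mono-culture (adjusted p 0.078 to 0.18 and 0.072 to 0.14). For KPC1 they were KPC1 replicates 1, 2 and 3 and mono-culture replicates 1, 2 and 3 (0.057 to 0.11). For clones H and T they were clone replicates 1 and 3 and mono-culture replicate 1 (0.054 to 0.062 and 0.055 to 0.073), and for clone V clone V replicates 2 and 3 and mono-culture replicate 1 (0.051 to 0.054). The clone K and N calls were also lost with no filter (adjusted p 0.073 and 0.08), the clone N and KPC1 calls with library size alone (0.054 and 0.061), and all 3 on the RPKM scales (0.062 to 0.083). Plxna1 shares exon bases with the antisense gene Gm26811, and whether strand was used in counting is not given in the sources used here, so reads of the pair may not be told apart.

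To set ligands beside receptors, the deposited values per kilobase of gene length (RPKM) were summed. In mono-culture the ligand Sema3c ranked first of the 10 genes (mean 56.6 RPKM), ahead of Sema3a (37.8 RPKM) and Nrp1 (37.1 RPKM). In all 8 co-cultures Nrp1 ranked first, at group means of 52.9 to 85.1 RPKM. The 4 class 3 genes together made 91.7 to 109 RPKM in the mono-culture libraries and 20.3 to 49.3 RPKM in co-culture. The neuropilins together made 46.7 to 58.9 RPKM and 60.1 to 127 RPKM. The ratio of the former to the latter was 1.71 to 2.10 in mono-culture and 0.181 to 0.596 in co-culture, highest with clone K, and the mono-culture libraries thus stood apart from all 32 others. Sema3c made up 55.0% to 59.2% of the class 3 sum in mono-culture and 6.95% to 47.0% in co-culture, where Sema3a held 45.2% to 84.1%. The Sema7a level per length reached a mean of 21.2 RPKM with clone V, where only Nrp1 and Plxna1 ranked above it, against 1.32 RPKM and the last rank in mono-culture. Comparisons between genes rest on the gene lengths behind the deposited values, which were 3590 bases for Nrp1 against 9785 bases of exon in GENCODE, a ratio of 0.367, while the ratio was 0.427 for Sema3a, 0.567 for Nrp2, 0.768 for Sema3c and 0.998 for Sema7a. With the GENCODE exon lengths in their place, an alternative chosen after seeing the data, Plxna1 and not Nrp1 ranked first in all 8 co-cultures (34.3 to 40.7 RPKM, against 19.4 to 31.2 RPKM for Nrp1), and Sema3c kept the first rank in mono-culture (43.4 RPKM). The ratio of class 3 to neuropilin sums was then 2.51 to 3.19 in mono-culture and 0.234 to 0.795 in co-culture, again without overlap. Sema3c made up 66.9% to 70.8% of the class 3 sum in mono-culture and 10.5% to 59.0% in co-culture, and Sema3a 24.3% to 26.8% and 31.5% to 74.9%.

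**Figure D3:**
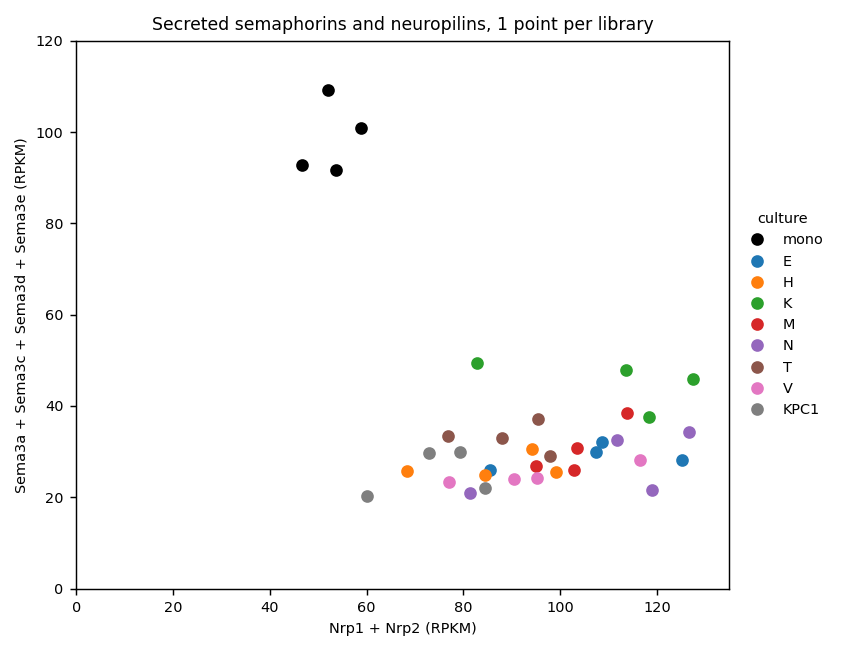
Summed RPKM of Sema3a, Sema3c, Sema3d and Sema3e (vertical axis) against summed RPKM of Nrp1 and Nrp2 (horizontal axis), 1 point per library, colored by culture. The 4 mono-culture points lie at the upper left (91.7 to 109 RPKM of ligand) and the 32 co-culture points at the lower right (20.3 to 49.3 RPKM), with clone K uppermost among them.

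Taking the 7 clones against each other, 6 of the 9 genes tested were called different, beside 67.5% of all genes. Setting aside Sema7a, selected for its span (8.28-fold), the genes with the widest spread were Sema3c, with a 5.44-fold span between the highest and lowest clone means, and Sema3e, with 3.82-fold. The narrowest were Plxna1, with 1.22-fold, and Nrp1, with 1.35-fold. Of the 7 clones, co-culture with clone K had the highest Sema3a, Sema3c and Sema3d and the lowest Sema3e, Sema5a and Sema7a. Sema3d was not called different among the clones, and Sema7a was selected on its pattern among them. Clone K also had the smallest shares of all genes called against mono-culture, 10.4% higher and 8.69% lower. Clone V was at the other end for Sema3c, Sema5a and Sema7a. When the 9 groups were ranked by mean CPM, the library ranges of 74 of the 80 neighboring pairs overlapped, so most steps in these orders were within the spread of the libraries. The 6 steps without overlap were those below mono-culture at the top of the order for Sema3a, Sema3c and Sema3d, those above it at the bottom for Sema7a and Nrp1, and that below KPC1 at the top for Sema3e. Sema7a was selected on its pattern among the clones. How often such steps occur over all genes was not computed, so these counts are description only.

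Other genes of the pathway were followed as lists, in the mean of the 7 clones against mono-culture, where the median log2 fold change of all genes was 0.0058 and 24.3% of them were called higher and 24.9% lower. All 3 other class 3 genes, Sema3b, Sema3f and Sema3g, fell (median -0.90). Sema3f, an Nrp2 ligand, stood at 86.0 ± 4.33 CPM (SD, n = 4) in mono-culture and at group means of 19.8 to 77.8 CPM with the clones (log2 fold change -0.96, SE 0.113, edgeR adjusted p = 3.6e-08). Sema3b fell by 0.90 on the log2 scale (adjusted p = 3.6e-06) and the low Sema3g by 0.67 (adjusted p = 0.012). Of the 11 other membrane semaphorins 9 were tested, and 4 rose and 1 fell (median 0.29). The leading ones were low genes. Sema4d, the plexin B1 ligand, stood at 0.474 CPM in mono-culture and 0.821 to 2.45 CPM with the clones (1.65, SE 0.432, adjusted p = 0.0021). Sema6a stood at 0.263 CPM in mono-culture (1.15, SE 0.471, adjusted p = 0.042). It was called higher with clones K, M and N (2.22 to 2.40), but not with E (0.86), H (-0.31), T (-0.66) or V (1.28). Both genes passed the filter on low counts through co-culture libraries, which favors a call of higher. Sema4a gave 0.70 (SE 0.212, adjusted p = 0.0065). Among the 7 other plexins none was called higher and only Plxnc1, the other Sema7a receptor, was called lower (-0.67, SE 0.260, adjusted p = 0.033; median of the list 0.10). The integrin chains of the Sema7a receptor both rose, Itga1 by 0.42 (adjusted p = 0.033) and Itgb1 by 0.23 (adjusted p = 0.039).

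**Figure D4:**
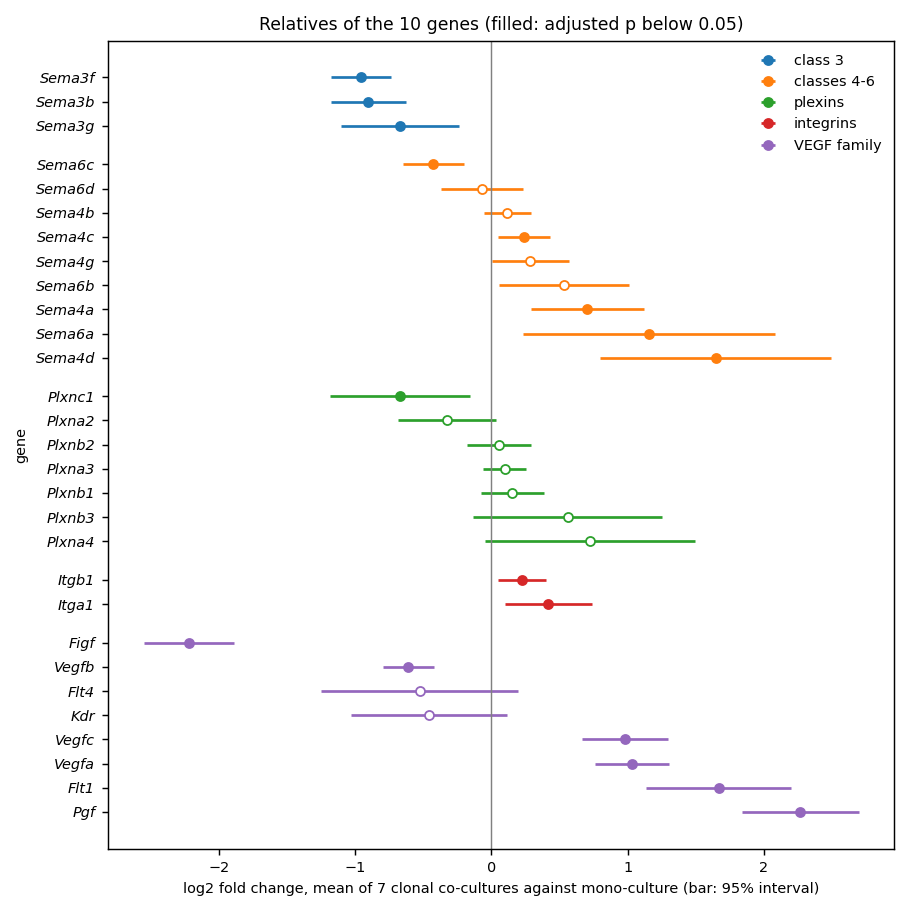
log2 fold change in the mean of the 7 clonal co-cultures against mono-culture (horizontal axis, bars are 95% intervals) for the relatives of the 10 genes that were tested, grouped by list and colored as in the key; filled points passed an adjusted p of 0.05. The class 3 genes Sema3b, Sema3f and Sema3g are all to the left of 0, and of the VEGF genes Pgf (2.27) and Figf (-2.22) stand farthest apart.

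Of the genes that act inside the cell after plexins, 26 were listed (27 rows, as Mical3 has a second row) and 25 rows were tested, of which 8 rose and 3 fell (median 0.04), against 24.3% and 24.9% of all genes. Mical2, a flavoprotein that oxidizes actin, rose from 52.8 ± 3.07 CPM (SD, n = 4) to group means of 148 to 203 CPM (log2 fold change 1.78, SE 0.155, edgeR adjusted p = 1e-10) and was called higher in all 8 co-cultures. The collapsin response mediator genes moved both ways, with Dpysl3 at 0.62 (SE 0.119, adjusted p = 6.2e-05) and Crmp1 at -1.04 (SE 0.364, adjusted p = 0.019), while Dpysl4 had 0 counts in every library. Of 8 VEGF family genes that share the neuropilins, 4 rose and 2 fell (median 0.26). Pgf, a placental growth factor that binds Flt1, rose from 2.39 ± 0.548 CPM to 7.89 to 15.4 CPM (2.27, SE 0.219, adjusted p = 7.6e-10) and Flt1, its receptor, from 19.8 ± 2.23 CPM to 30.4 to 98.6 CPM (1.67, SE 0.271, adjusted p = 8.9e-06). Figf, which encodes VEGF-D, fell from 184 ± 21.1 CPM to 20.02 to 81.5 CPM (-2.22, SE 0.169, adjusted p = 1.3e-11). Both directions were thus found among ligands that share a receptor with the class 3 semaphorins.

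The genes whose pattern was most like that of each of 9 members were found by Pearson's r of log2 CPM over the 36 libraries, which share their groups. For Sema7a these were Kctd11 (r = 0.928), Pla1a (0.907) and Ctsc (0.906). Kctd11 stood at 18.9 CPM in mono-culture and at 21.8 to 68.0 CPM with the clones. Steap3, a metalloreductase, was closest to Sema3c (0.898) and Fbxl7, an F-box gene, to Sema3a (0.897), and both were higher in mono-culture than in any clone mean. Slit2, a guidance ligand of another family, was closest to Nrp1 (0.915), at 276 CPM in mono-culture and 688 to 861 CPM with the clones. The closest genes were Lamp2 for Sema3d (0.882), Abcb6 for Sema3e (0.908), Adamtsl3 for Nrp2 (0.880), Ptprg for Plxna1 (0.914) and Cobll1 for Plxnd1 (0.912).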

How the data were processed

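RNA of 36 fibroblast libraries (200 ng, poly(A) selection, strand-specific kit, 14 PCR cycles, paired 76-base reads) was sequenced. Per the labels, the build was mm10, and STAR, featureCounts and edgeR were used, with versions and settings not given in the sources used here. The authors deposited raw counts per gene for 39017 genes, and RPKM values for 37746 genes, which are normalized to gene length and to library size. Genes were filtered with filterByExpr, leaving 14439. The counts of all 36 libraries, in 9 groups, were fitted in 1 model (R 4.3.3, edgeR 4.0.16, TMM, robust quasi-likelihood), without a replicate term, at an adjusted p of 0.05, and the procedure was tested on simulated data. Intervals are 95% normal intervals. Alternatives were DESeq2 1.42.0, other scalings and filters, a replicate block, limma 3.58.1 on log2(RPKM + 1) and log2(RPKM + 0.1), and leaving out each library. CPM for likeness used a prior count of 1. Libraries of 1 group differed beyond sampling noise (smallest chi-square per degree of freedom 5.53), so none was counted as a repeat. The members, gene lists and markers were chosen with earlier results of these data known. Genes outside the members were named by rule: the closest gene by Pearson's r (3 for Sema7a; that of Sema5a is not reported here), and in each list up to 3 called genes of largest change and those at or under 3 counts in every library. Marker Adgre1 was not matched by symbol. Vegfd and Figf are 1 gene.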

Additional observations from a re-analysis of the deposited data

Results flagged for a closer look

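Of the 90 sets of 4 libraries (10 genes in 9 groups), 5 held a library whose gap to the nearest of the others, divided by the range of the 4, passed Dixon's critical ratio of 0.829; about 4.5 such sets would arise by chance. These were Sema3c in mono-culture, where replicate 2 held 351 CPM against 276 to 288 CPM (gap ratio 0.842), and Sema3c with KPC1, where replicate 1 held 37.7 CPM against 19.2 to 22.1 CPM (0.843). The others were Sema3d with clone K, where replicate 3 was the lowest (3.97 CPM, 0.831), Sema5a with clone N, where replicate 4 was the lowest (85.6 CPM, 0.838), and Sema7a with clone T, where replicate 4 held 13.7 CPM against 27.6 to 29.8 CPM (0.864).

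The change against mono-culture differed between clones by edgeR's test over the 7 clonal co-cultures for 6 of the 9 genes tested, beside 67.5% of all genes. The span between the largest and smallest log2 fold change was 2.45 for Sema3c, 1.93 for Sema3e, 0.92 for Plxnd1, 0.89 for Sema5a, 0.64 for Sema3a and 0.47 for Nrp2. For Sema3e the span crossed 0, from -1.39 with clone K to 0.54 with clone T.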

How the results depend on the processing

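The numbers of members called kept within 1.5 times their main value in every alternative run. Leaving out 1 library at a time, they were 5 to 6 for clone E, 5 to 8 for H, 6 to 8 for K and 5 to 6 for M. They were 6 to 7 for N and T, 5 to 7 for V and 7 to 9 for KPC1, where Sema7a is included. Among the clones they were 4 to 7, with the fewest without clone K replicate 2. With the mean of the 7 clones Sema7a has no test, and the only call lost among the other genes was that of Plxna1, without mono-culture replicate 1. Of the values for single genes under the other alternatives, 832 kept direction and call, 19 lost the call, 10 gained it, 7 (Sema7a on the log2(RPKM + 1) scale) moved and 7 changed sign. All sign changes were of Sema5a, in comparisons where it was not called. With KPC1 its log2 fold change was -0.071 with library size alone, -0.011 with at least 10 counts in every library, -0.10 on log2(RPKM + 1) and -0.11 on log2(RPKM + 0.1), and with the mean of the 7 clones -0.0042, -0.025 and -0.030 with library size alone and on the 2 RPKM scales. Leaving out single libraries, it ran from -0.11 to 0.15 with KPC1 (negative without KPC1 replicate 1 or 3 or mono-culture replicate 3), from -0.23 to 0.044 with clone M (positive without clone M replicate 4) and from -0.21 to 0.078 with clone T (positive without clone T replicate 4). The cause was not tested.

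The library titles number the co-cultures replicate by replicate and the mono-culture libraries last, but the labels do not say what a shared replicate number marks. Between a co-culture and a mono-culture library with the same number, deviations from the group means correlated at a median of -0.023 (-0.582 to 0.461; 5 of 32 pairs over 0.1), and between libraries of 2 co-cultures at 0.143 (-0.519 to 0.693; 63 of 112 over 0.1). Not every pair exceeded 0.1, so the numbers were not used as a pairing, although 23 of 32 co-culture libraries correlated best with their own number. With the replicate block Plxna1 with clone E was called (0.39, edgeR adjusted p = 0.025), as were Nrp2 with clone M (0.44, 0.02) and Sema3d among the clones (0.0033), and the block changed no other call of a member. The lowest count in a library was 19 for Sema3d and 49 for Sema7a.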

Other observations

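Between Sema3d and Sema3c, over 5347 kb of chromosome 5, 4 genes that are no semaphorins passed the filter on low counts. Cacna2d1, a calcium channel subunit, stood at 57.6 CPM in mono-culture and was higher with the mean of the 7 clones (log2 fold change 0.56, SE 0.104, edgeR adjusted p = 4.1e-05). Hgf, hepatocyte growth factor, stood at 22.7 CPM and was also higher (0.38, SE 0.111, adjusted p = 0.0055). Speer3 and the pseudogene Gm6650 were under 0.05 CPM in mono-culture and passed the filter only through co-culture libraries. A call of either could thus only be higher, so no fold is given and they are not counted here. Cacna2d1 and Hgf were called higher, beside 24.3% of all genes tested. In the same stretch Sema3a, Sema3c and Sema3d were called lower and Sema3e was not called. The cause was not tested.

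Replicates with the same number looked alike in several receptors. Replicate 4 was the lowest of the 4 libraries for Plxna1 in 8 of 8 co-cultures and for Nrp1, Nrp2 and Sema5a in 7 of 8, whereas in mono-culture replicate 4 was the highest for Plxna1, Nrp1 and Nrp2. Replicate 2 was the highest for Sema3a in 7 of 8 co-cultures and in mono-culture. The labels do not say what the numbers stand for.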
